A study of Ovis aries with 40 samples.

Results

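The genes described here are 10 genes of the lung endothelium and of its VEGF and angiopoietin signals, taken by gene symbol from the 24478 genes counted in fetal and term sheep lung: the ligands *VEGFA*, *ANGPT1* and *ANGPT2*, the receptors *KDR*, *FLT1*, *TEK*, *TIE1* and *EDNRB*, and the junction and adhesion genes *CDH5* and *PECAM1*. All 10 were found, and all 10 passed the filter on low counts in every fit. The smallest count of any of them in any library was 249, for *ANGPT2*. The 40 libraries cover proximal and distal lung of wild type (WT) and *CFTR*-/- (CF) American Romney sheep at gestational days 65, 80, 100, 120 and 147 (term), with 2 libraries in each of the 20 conditions. *CFTR* encodes the chloride channel that is lost in cystic fibrosis.

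WT lambs were naturally bred. CF animals carry *CFTR* targeted in exon 2 and were cloned by nuclear transfer from a single male fetal fibroblast line, so loss of *CFTR*, cloning and the origin of the line cannot be told apart here. The labels mark the term samples of both genotypes as taken at birth. Natural birth and a recorded time from birth to collection are stated for the WT term animals, and neither the kind of birth of the CF term animals nor any animal's time to collection is given in the sources used here, so genotype and these conditions at term cannot be told apart. The samples are labelled epithelial tissue, but they are homogenised lung. Of 30 fixed pan-endothelial markers, 27 were in the table and all 27 were counted in all 40 libraries, at a summed level of 1504 to 4853 CPM, the count of a gene scaled to the size of its library.

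VEGFA, made largely by the epithelium of the developing lung, acts on endothelial cells through KDR, the main signalling receptor, and FLT1, which binds VEGFA more tightly and often acts as a decoy. ANGPT1, released by cells around the vessel, activates the receptor TEK and quiets the endothelium, while ANGPT2 comes from endothelial cells themselves and can oppose it. TIE1 pairs with TEK, CDH5 and PECAM1 hold endothelial cells together, and EDNRB, an endothelin receptor, marks the capillary cells of the gas exchange surface.

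In the Oar_v4.0 assembly used for counting, *VEGFA* lies at chr20:17291023-17305051 (plus strand), *ANGPT1* at chr9:69513246-69815854 (plus) and *ANGPT2* at chr26:5243062-5298834 (minus). The receptor genes lie at chr6:70477415-70524590 (*KDR*, minus), chr10:31814061-32020993 (*FLT1*, plus), chr2:94772847-94876400 (*TEK*, plus), chr1:17747521-17766820 (*TIE1*, plus) and chr10:53447691-53476966 (*EDNRB*, minus). *CDH5* spans chr14:33384804-33423504 (plus) and *PECAM1* spans chr11:47888341-47992600 (minus). Reads were summed over all annotated exons of a gene, which total 1150 bases in *VEGFA* and 8941 bases in *TEK*, the shortest and longest of the 10. Of the exonic bases of *PECAM1*, 110 overlap *MILR1* on the opposite strand, and without a stated strand setting reads there cannot be assigned to either gene.

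WT libraries held 24670355 to 43700012 counted reads before term and CF libraries 85773994 to 103139483, so that depth and genotype cannot be told apart before term. At term the 8 libraries held 115937437 to 126749480. From day 120 to term depth thus rose more in WT than in CF libraries. Over that interval depth cannot be told apart from age in WT, nor from the difference between genotypes in the change. Some libraries stood apart. The CF term replicate 2 libraries had a summed level of 19 hypoxia-responsive genes of 8105 CPM in proximal and 8692 CPM in distal lung, against 1080 to 1270 CPM in the other 6 term libraries. Both come from 1 animal by their labels. In CF proximal lung at day 120 the replicates differed from each other by a root mean square of 1.63 on the log2 scale over the genes counted, and the next highest such difference was 0.758. Calls among the 10 genes that were lost or gained without 1 of these libraries, or the differences found without it, are given beside the results.

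Levels are CPM after trimmed mean of M-values (TMM) scaling over all 40 libraries. Divided by exonic length, the median over the 40 libraries was highest for *PECAM1*, at 87.6 (50.7 to 192) CPM per kb (lowest to highest library), and *VEGFA*, at 80.8 (35.4 to 394). *CDH5* followed at 64.7 (41.3 to 139), *KDR* at 36.4 (22.5 to 67.8), *TIE1* at 31.4 (18.3 to 74.2) and *EDNRB* at 28.5 (12.2 to 65.6) CPM per kb. The lowest medians were 13.2 (4.80 to 27.5) for *ANGPT1*, 10.8 (6.80 to 35.2) for *TEK*, 5.04 (2.27 to 20.3) for *ANGPT2* and 4.09 (1.07 to 31.7) CPM per kb for *FLT1*. The ranges of neighbours in this order overlap at every step. The order also rests on the annotated exonic lengths, from 1150 bases in *VEGFA* to 8941 in *TEK*. *FLT1* had both the lowest median and the widest range, with its highest library 29.7 times its lowest. *KDR*, the other VEGFA receptor, had the narrowest at 3.01 times. Both ends of the *FLT1* range were libraries that stood apart, CF proximal day 120 replicate 2 (lowest) and CF proximal term replicate 2 (highest). The lowest *KDR* library was also CF proximal day 120 replicate 2.

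**Figure D1:**
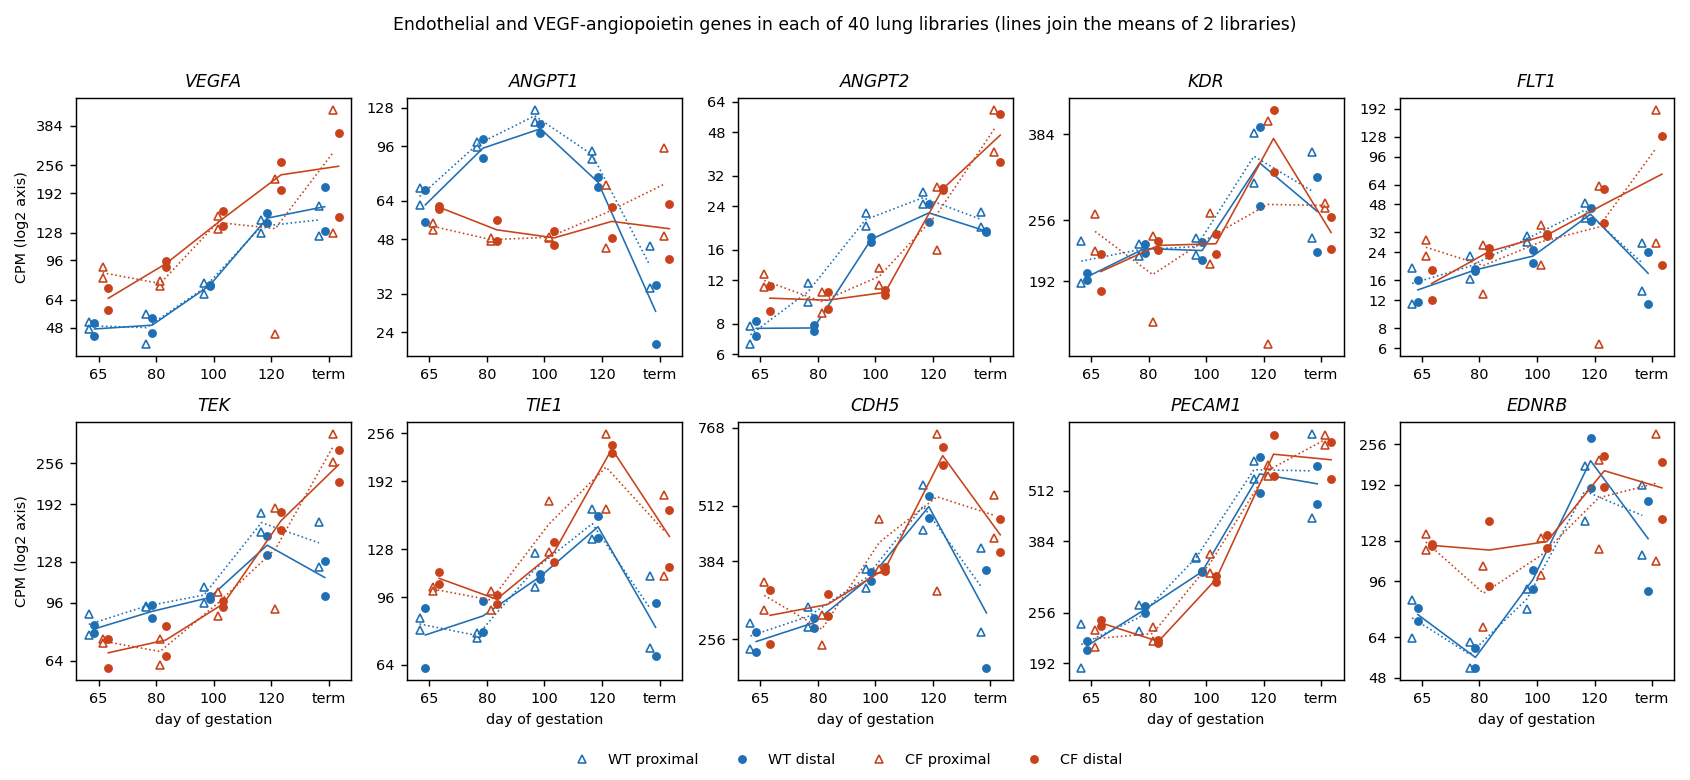
Level of each of the 10 genes in CPM (log2 axis) against day of gestation, with 1 point per library, triangles and dotted lines for proximal and circles and solid lines for distal lung, WT in blue and CF in red, lines joining the means of 2 libraries. *ANGPT1* peaked at day 100 in WT lung only on these means, *ANGPT2* and *TEK* stood higher in the CF than in the WT libraries at term, and *KDR* of the genotypes overlapped at every time point.

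The first question was how these genes move through gestation in WT lung. Each course of 10 libraries was tested with the quasi-likelihood F test of edgeR, p-values were adjusted over all genes tested by the Benjamini-Hochberg method, and a gene was called at an adjusted p of 0.05 or less. Fold changes, from 2 libraries against 2, are given on the log2 scale. Their standard error (SE) rests on a spread pooled over all libraries of a fit. All adjusted p-values are from this test unless another tool is named. Over the 5 time points, 10 of the 10 genes varied in WT proximal lung, where 40.8% of all genes tested were called. In WT distal lung 9 of 10 varied, against 40.4% of all genes, and *KDR* did not pass (adjusted p = 0.0673). Because the tissue is bulk, a change in the share of endothelial cells and a change in RNA per cell cannot be told apart in these data.

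By their labels both WT day 100 replicates of a region come from 1 animal, so comparisons with WT day 100 rest on 1 WT animal at that age. With the pair summed to 1 library the course of *KDR* in WT proximal lung was no longer called (0.0848).

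Several of these course calls rested on the day 120 libraries. Without WT proximal day 120 replicate 1 the calls of *KDR* (0.168), *CDH5* (0.138), *FLT1* (0.132) and *TIE1* (0.0804) were lost, and without replicate 2 that of *FLT1* (0.0618). *KDR* was also lost without any WT proximal library of days 65 to 100 (0.0556 to 0.0906), and *CDH5* without day 65 replicate 2 (0.0578) or day 80 replicate 1 (0.0508). Without WT distal day 120 replicate 1 those of *FLT1* (0.119), *CDH5* (0.116), *TIE1* (0.114) and *TEK* (0.0519) were lost, and without replicate 2 those of *CDH5* (0.0607), *TIE1* (0.0584) and *FLT1* (0.0545). *VEGFA*, *ANGPT1*, *ANGPT2*, *PECAM1* and *EDNRB* stayed called in both regions whichever library was left out. The course of *KDR* in WT distal lung passed without term replicate 1 (0.0248) or 2 (0.0229) or day 120 replicate 2 (0.0355).

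*VEGFA* rose between days 100 and 120. In WT distal lung it stood at 50.6 and 44.3 CPM at day 65, 52.97 and 45.7 at day 80, 73.5 and 74.9 at day 100, 156 and 141 at day 120 and 204 and 130.3 at term. Proximal WT libraries read 50.8 and 47.4 CPM at day 65, 55.5 and 40.7 at day 80, 67.96 and 76.2 at day 100, 145 and 128 at day 120 and 168 and 123 at term. The libraries of days 65 and 80 lay together, both libraries of day 120 lay above every earlier one in both regions, and the term libraries straddled those of day 120. The rise from day 100 to 120 was 2.00-fold in distal lung (log2 fold change 1.00 ± 0.19 SE, adjusted p = 0.0345) and 1.91-fold in proximal lung (log2 fold change 0.94 ± 0.19 SE, adjusted p = 0.0340). In this interval 2 of 10 genes were called higher in distal lung, against 1.34% of all genes, and 2 of 10 in proximal lung, against 1.39%. The call did not hold when any 1 of the 4 libraries compared was left out, with an adjusted p of 0.112 to 0.278 in distal and 0.0834 to 0.214 in proximal lung, nor in distal lung when day 80 replicate 1 (0.0644) or 2 (0.0664) was.

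*ANGPT1* and *ANGPT2*, the ligands of TEK, followed different courses. *ANGPT1* in WT distal lung stood at 54.7 and 69.3 CPM at day 65, 87.6 and 102 at day 80, 113 and 106 at day 100, 76.2 and 70.6 at day 120 and 34.1 and 22.02 at term. Its proximal WT values were 70.2 and 61.7 CPM at day 65, 95.3 and 99.1 at day 80, 126 and 115 at day 100, 87.5 and 92.5 at day 120 and 45.6 and 33.5 at term. Levels were highest at day 100 and lowest at term, where every library lay below every earlier library of its region. From day 120 to term *ANGPT1* fell 2.65-fold in distal lung (log2 fold change -1.41 ± 0.20 SE, adjusted p = 0.00249) and 2.28-fold in proximal lung (log2 fold change -1.19 ± 0.14 SE, adjusted p = 7.56e-04). Of the 16 calls made for the 10 genes over consecutive intervals, these 2 alone held whichever library was left out.

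*ANGPT2* in WT distal lung stood at 8.22 and 7.11 CPM at day 65, 7.51 and 7.88 at day 80, 18.1 and 17.3 at day 100, 24.5 and 20.7 at day 120 and 18.9 and 19.2 at term. In proximal lung it stood at 6.63 and 7.80 CPM at day 65, 9.82 and 11.8 at day 80, 22.5 and 19.9 at day 100, 27.5 and 24.7 at day 120 and 22.7 and 19.9 at term. Both libraries of days 100 and 120 and of term lay above all libraries of days 65 and 80 in each region. The rise from day 80 to 100 was 2.29-fold in distal lung (log2 fold change 1.19 ± 0.17 SE, adjusted p = 0.0183) and 1.94-fold in proximal lung (log2 fold change 0.96 ± 0.18 SE, adjusted p = 0.0338). It was the only call among the 10 genes in that interval in either region, against 0.75% of all genes called higher in distal and 1.27% in proximal lung. The distal call was lost when any 1 of the 4 libraries compared was left out (adjusted p 0.170 to 0.210). The proximal call was lost when any 1 of its 4 was left out (0.103 to 0.228) and without day 120 replicate 1 (0.0623) or 2 (0.0614).

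Among the receptors and junction genes, calls of a rise were few and several levels were highest at day 120. *TEK* in WT proximal lung stood at 88.5 and 76.5 CPM at day 65, 94.2 and 93.5 at day 80, 107 and 95.8 at day 100, 179.9 and 157 at day 120 and 169 and 124 at term, and the day 120 libraries lay above all earlier ones. It rose 1.68-fold from day 100 to 120 there (log2 fold change 0.75 ± 0.15 SE, adjusted p = 0.0377), a call lost when any 1 of the 4 libraries compared was left out (adjusted p 0.0789 to 0.234) and without either day 80 library (0.0647 and 0.0651). In WT distal lung the values were 77.8 and 82.2 CPM at day 65, 86.3 and 94.6 at day 80, 101 and 98.8 at day 100, 154 and 134 at day 120 and 129 and 101 at term, and the difference from day 100 to 120 did not pass (log2 fold change 0.53 ± 0.14 SE, adjusted p = 0.0825). It passed without term replicate 1 (0.0217) or 2 (0.0188).

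*PECAM1* in WT distal lung stood at 217 and 206 CPM at day 65, 255 and 266 at day 80, 322 and 324 at day 100, 622 and 505 at day 120 and 590.2 and 475 at term. Its day 120 and term libraries lay above all earlier ones and overlapped each other. It rose 1.74-fold from day 100 to 120 (log2 fold change 0.80 ± 0.15 SE, adjusted p = 0.0308), and the call was lost when any 1 of the 4 libraries compared was left out (adjusted p 0.0646 to 0.276) and without either day 80 library (0.0737 and 0.0746). In WT proximal lung *PECAM1* stood at 240.3 and 187 CPM at day 65, 230.4 and 267 at day 80, 349 and 352 at day 100, 606 and 548 at day 120 and 708 and 438 at term, with a difference over the same interval of 0.73 ± 0.21 SE (adjusted p = 0.120). That proximal difference passed without term replicate 1 (0.0336) or 2 (0.0326). The change in *PECAM1* from day 120 to term did not pass, at -0.10 ± 0.15 SE (adjusted p = 0.648) in distal and -0.01 ± 0.21 SE (adjusted p = 0.969) in proximal lung.

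*TIE1*, *CDH5* and *FLT1* stood lower at term. *TIE1* in WT distal lung stood at 62.9 and 90.2 CPM at day 65, 77.8 and 93.7 at day 80, 110.5 and 107 at day 100, 156 and 137 at day 120 and 92.8 and 67.6 at term. Both day 120 libraries lay above all others, and the term libraries were back among those of days 65 and 80. *TIE1* fell 1.85-fold from day 120 to term in distal lung (log2 fold change -0.89 ± 0.20 SE, adjusted p = 0.0140) and 1.66-fold in proximal lung (log2 fold change -0.73 ± 0.20 SE, adjusted p = 0.0246), where the 2 libraries went from 162 and 136 to 109 and 70.7 CPM. Without day 120 replicate 1 the log2 fold changes were -0.79 in distal and -0.58 in proximal lung, and without term replicate 2 they were -0.72 and -0.46. The falls did not pass without day 120 replicate 1 (0.0972 distal, 0.137 proximal) or term replicate 2 (0.0580 distal, 0.127 proximal).

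*CDH5* in WT distal lung stood at 240.4 and 266 CPM at day 65, 287 and 271 at day 80, 363 and 347 at day 100, 539.8 and 481 at day 120 and 367 and 221 at term. It fell 1.76-fold from day 120 to term (log2 fold change -0.82 ± 0.21 SE, adjusted p = 0.0207), with both term libraries below both day 120 libraries, and the call was lost without day 120 replicate 1 (0.124) or 2 (0.0600). In WT proximal lung *CDH5* went from 571 and 451 CPM at day 120 to 410.5 and 266 at term, which did not pass (log2 fold change -0.60 ± 0.20 SE, adjusted p = 0.0590). The proximal difference passed without term replicate 1 (-0.93, adjusted p = 0.0111).

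*FLT1* in WT distal lung stood at 16.2 and 11.7 CPM at day 65, 18.8 and 18.4 at day 80, 24.8 and 20.7 at day 100, 45.8 and 37.6 at day 120 and 24.2 and 11.3 at term. The proximal values were 19.3 and 11.3 CPM at day 65, 16.4 and 22.8 at day 80, 30.6 and 27.99 at day 100, 48.9 and 39.4 at day 120 and 27.4 and 13.7 at term. Its mean was highest at day 120 in both regions, and at term both libraries lay below both day 120 libraries. The fall from day 120 to term was 2.39-fold in distal lung (log2 fold change -1.26 ± 0.32 SE, adjusted p = 0.0215) and 2.16-fold in proximal lung (log2 fold change -1.11 ± 0.34 SE, adjusted p = 0.0405). Without WT proximal term replicate 2 the proximal log2 fold change was -0.70. The distal call was lost without day 120 replicate 1 (0.118) or 2 (0.0537). The proximal call held without 4 of 10 libraries and reached an adjusted p of 0.199 without term replicate 2, 0.174 without day 120 replicate 1, 0.0878 without day 120 replicate 2, 0.0583 and 0.0564 without the day 100 libraries, and 0.05002 without day 80 replicate 1. From day 120 to term 4 of the 10 genes were called lower in WT distal lung, against 12.3% of all genes, and 3 of 10 in WT proximal lung, against 11.1%.

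For *KDR* and *EDNRB* edgeR made no call over a consecutive interval in any course with all libraries. *KDR* in WT distal lung stood at 193 and 199 CPM at day 65, 219.6 and 228 at day 80, 231 and 212 at day 100, 397 and 274 at day 120 and 314 and 219.9 at term. The first 3 time points lay within a narrow band and the day 120 libraries lay above them. Of its 16 interval tests over the 4 courses, 4 had an unadjusted p under 0.05, and the lowest adjusted p was 0.0541. DESeq2, run as an alternative, called *KDR* in 3 of the 16, from day 100 to 120 in WT proximal lung (adjusted p = 0.0381) and CF distal lung (0.0350) and from day 120 to term in CF distal lung (0.0408). In WT proximal lung the libraries went from 235 and 217 to 386 and 306 CPM. Over all genes DESeq2 called 7937 of 72744 interval tests in WT proximal lung, against 5316 with edgeR, and 8128 of 78032 in CF distal lung, against 4676.

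*EDNRB* in WT distal lung stood at 78.9 and 71.9 CPM at day 65, 59.4 and 51.5 at day 80, 90.4 and 104 at day 100, 268 and 188 at day 120 and 171 and 89.2 at term. Its day 120 libraries lay above all earlier ones, and the difference from day 100, of 2.34-fold, did not pass (log2 fold change 1.23 ± 0.28 SE, adjusted p = 0.0583). In WT proximal lung the libraries went from 90.6 and 78.5 CPM at day 100 to 219 and 148 at day 120 (log2 fold change 1.14 ± 0.26 SE, adjusted p = 0.0598). Both passed without either term library of their region (0.00666 and 0.00564 distal, 0.0258 and 0.0242 proximal). Of its 16 interval tests 5 had an unadjusted p under 0.05, and DESeq2 called 3: both of these differences (adjusted p = 6.06e-04 distal and 0.00104 proximal) and the difference from day 120 to term in distal lung (0.0144). Over all genes DESeq2 called 8198 of 73108 interval tests in WT distal lung, against 5357 with edgeR, and 7937 of 72744 in WT proximal lung, against 5316.

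Leaving out a term library also added calls in WT distal lung. From day 100 to 120 *CDH5* (0.0322 and 0.0276), *FLT1* (0.0289 and 0.0250) and *ANGPT1*, as lower (0.0446 and 0.0444), passed without term replicate 1 and 2, and from day 80 to 100 *VEGFA* (0.0338 and 0.0332) and *EDNRB* (0.0483 and 0.0462) did. From day 120 to term *EDNRB* (0.00216), *TEK* (0.0137) and *KDR* (0.0461) passed as lower without term replicate 1.

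With the day 100 pair summed to 1 library, since it comes from 1 animal, none of the WT calls against day 100 was kept. The adjusted p became 0.194 in distal and 0.141 in proximal lung for *ANGPT2* from day 80 to 100, 0.298 and 0.171 for *VEGFA* from day 100 to 120, 0.210 for *TEK* in proximal lung and 0.300 for *PECAM1* in distal lung, and the fall of *FLT1* to term in proximal lung was also lost (0.0561). The log2 fold changes hardly moved, at 1.19 and 0.98 for *ANGPT2*, 0.998 and 0.94 for *VEGFA*, 0.73 for *TEK* and 0.80 for *PECAM1*.

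From day 65 to 80 edgeR called none of the 10 genes in any course, against 0.011% of all genes in WT proximal and 0.0164% in WT distal lung and 0% in both CF courses, and DESeq2 called none. Log2 differences ran from -0.45 to 0.60 in WT and from -0.52 to 0.71 in CF, and 3 of the 40 tests, of *ANGPT1* in both WT regions and *ANGPT2* in WT proximal lung, had an unadjusted p under 0.05.

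**Figure D2:**
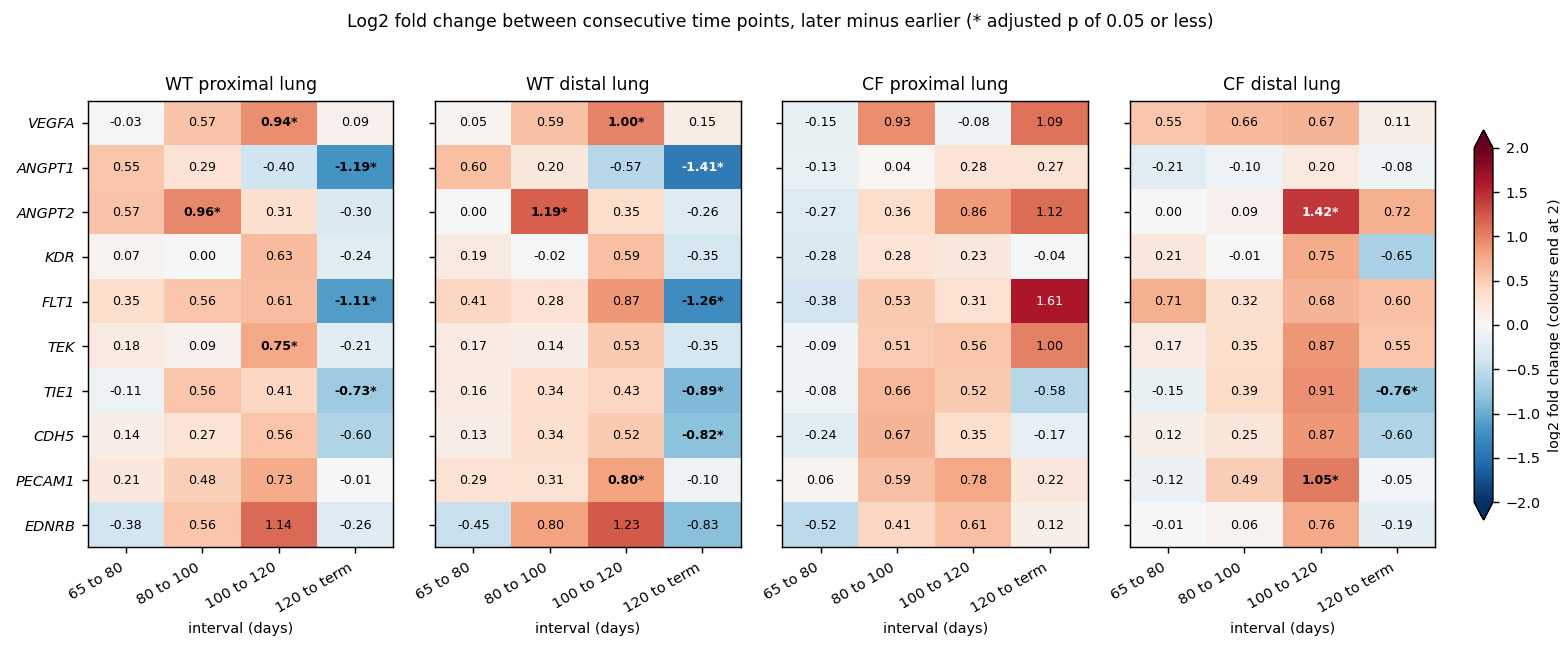
Log2 fold change of each gene between consecutive time points in the 4 courses, later minus earlier, with a star where the adjusted p was 0.05 or less. The 2 WT courses carry 13 of the 16 stars, with rises up to day 120 and falls to term led by *ANGPT1*, at -1.41 in distal and -1.19 in proximal lung.

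The same tests were run in CF lung, whose courses share no library with the WT courses. Over the 5 time points, 7 of 10 genes varied in CF distal lung, against 33.9% of all genes, and 3 of 10 (*ANGPT2*, *TEK* and *PECAM1*) in CF proximal lung, against 5.36%. The 3 proximal calls were each lost without CF proximal term replicate 2, at an adjusted p of 0.147 for *ANGPT2*, 0.182 for *TEK* and 0.0563 for *PECAM1*, and without any of the 6 libraries of days 65 to 100, at 0.0519 to 0.127. *TEK* was also lost without term replicate 1 (0.0903). In CF distal lung *KDR* was lost without day 120 replicate 1 (0.137) or any library of days 65 to 100 (0.0597 to 0.0985). The course of *FLT1* in CF distal lung passed without term replicate 1 (0.00264) or 2 (0.0317), and that of *VEGFA* in CF proximal lung without day 120 replicate 1 (0.0426). *ANGPT1* gave adjusted p-values of 0.739 in distal and 0.778 in proximal lung over the CF course, the highest of the 10 genes in distal lung.

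Over consecutive intervals in CF distal lung, *ANGPT2* stood at 11.3 and 8.99 CPM at day 65, 9.18 and 10.8 at day 80, 10.5 and 10.99 at day 100, 28.02 and 28.5 at day 120 and 36.4 and 57.2 at term. It lay between 8.99 and 11.3 CPM up to day 100, the libraries of day 120 lay above all earlier ones, and those of term lay above those of day 120. It rose 2.68-fold from day 100 to 120 (log2 fold change 1.42 ± 0.26 SE, adjusted p = 0.0432). *PECAM1* stood at 246 and 238 CPM at day 65, 219 and 216 at day 80, 304 and 315 at day 100, 556 and 704 at day 120 and 547 and 674 at term and rose 2.07-fold in the same interval (log2 fold change 1.05 ± 0.20 SE, adjusted p = 0.0484), where 0.528% of all genes were called higher. Each of these 2 calls was lost without any of the 8 libraries before term, at adjusted p-values up to 0.443 for *ANGPT2* and 0.493 for *PECAM1*.

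The other receptors and *CDH5* were followed in CF distal lung as well. *TEK* stood at 74.4 and 60.8 CPM at day 65, 81.7 and 66.2 at day 80, 93.5 and 97.4 at day 100, 182 and 159.7 at day 120 and 225 and 281 at term, with the term libraries above all others. *FLT1* stood at 18.5 and 12.1 CPM at day 65, 25.6 and 23.1 at day 80, 30.2 and 31.4 at day 100, 59.98 and 36.5 at day 120 and 20.03 and 129 at term, so that 1 term library lay below those of days 80 to 120 and the other above all. *CDH5* stood at 331 and 249.5 CPM at day 65, 324 and 289.9 at day 80, 366 and 372 at day 100, 696 and 633 at day 120 and 404 and 478 at term, and *KDR* at 218 and 184 CPM at day 65, 222 and 232 at day 80, 218 and 239.8 at day 100, 431 and 321 at day 120 and 223 and 259.9 at term, both with their higher libraries at day 120. The differences to term of *TEK*, 0.55 ± 0.21 SE (adjusted p = 0.0796), of *FLT1*, 0.60 ± 0.65 SE (adjusted p = 0.514), and of *CDH5*, -0.60 ± 0.21 SE (adjusted p = 0.0650), did not pass. Without term replicate 1 that of *FLT1* passed (1.39, adjusted p = 0.0225), as did that of *ANGPT2* (0.997, adjusted p = 0.0155), and without day 120 replicate 2 that of *KDR* passed as lower (-0.87, adjusted p = 0.0147).

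*TIE1* in CF distal lung stood at 111 and 104 CPM at day 65, 97.4 and 92.2 at day 80, 118 and 133 at day 100, 228 and 238 at day 120 and 161 and 115 at term and fell 1.70-fold to term (log2 fold change -0.76 ± 0.20 SE, adjusted p = 0.0285), 1 of 10 genes called lower against 11.5% of all genes. The call was lost without term replicate 2 (0.107), day 120 replicate 1 (0.0842) or any library of days 80 and 100 (0.0563 to 0.0606). From day 100 to 120 *TIE1* passed as higher without term replicate 1 (0.91, adjusted p = 0.0304) or 2 (0.91, adjusted p = 0.0305). *ANGPT1* in CF distal lung stood at 60.2 and 61.6 CPM at day 65, 47.4 and 55.5 at day 80, 51.1 and 45.9 at day 100, 48.6 and 61.05 at day 120 and 62.5 and 41.3 at term, all within the band from 41.3 to 62.5 CPM. In CF proximal lung edgeR called none of the 10 genes in any of the 4 intervals, where 0%, 0%, 0.0203% and 0.356% of all genes were called in time order. There, 5 of the 40 tests had an unadjusted p under 0.05, and DESeq2 made 1 call. Over all genes DESeq2 called 2021 of 78760 interval tests there, against 74 with edgeR. Without CF proximal day 120 replicate 1, *TEK* (1.603, adjusted p = 0.0268) and *ANGPT2* (1.605, adjusted p = 0.0430) passed from day 120 to term, where 6.49% of all genes were called.

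Other genes of these pathways and other cell type markers were counted in the same tests, from day 120 to term in WT distal lung, where 13.5% of all genes were called higher and 12.3% lower, with a median log2 fold change of 0.04. Of 27 other pan-endothelial markers 7 were called lower and 1 higher, with a median of -0.16. The called genes included *PLVAP*, of endothelial diaphragms (log2 fold change -1.57 ± 0.24 SE, adjusted p = 0.00314), and *EMCN*, an endothelial sialomucin (log2 fold change -1.31 ± 0.15 SE, adjusted p = 0.00119). Of 7 other VEGF family genes 2 were called lower: *FIGF*, which encodes VEGF-D (log2 fold change -1.01 ± 0.26 SE, adjusted p = 0.0237), and *NRP2*, a co-receptor (log2 fold change -0.43 ± 0.14 SE, adjusted p = 0.0475). The 10 genes described here had a median of -0.58 in this interval.

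Of 7 other angiopoietin pathway and angiopoietin-like genes, 3 were called higher and 2 lower. The highest was *DOK2*, an adaptor that docks on TEK and is also expressed in leukocytes (log2 fold change 2.88 ± 0.64 SE, adjusted p = 0.0134). Of 5 endothelin genes tested 1 was called higher and 2 lower, among them *EDNRA*, the other endothelin receptor (log2 fold change -0.98 ± 0.16 SE, adjusted p = 0.00419). Of 11 pericyte markers 6 were called lower and 1 higher, led by *RGS5* (log2 fold change -4.12 ± 0.71 SE, adjusted p = 0.00487).

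Markers of other cells moved in the same interval: 8 of 10 leukocyte markers, 5 of 9 alveolar type 1 markers and 7 of 11 epithelial markers were called higher, and 7 of 7 erythroid markers lower. Summed alveolar type 1 markers reached 7653 to 7909 CPM in WT distal lung at term, and their part in the falls of *ANGPT1*, *FLT1*, *TIE1* and *CDH5* was not tested. Among the capillary lists, 2 of 7 aerocyte markers were called higher and 1 lower, led by *CA4*, a carbonic anhydrase of those cells (log2 fold change 5.33 ± 0.40 SE, adjusted p = 2.26e-04), and 1 of 7 general capillary markers higher and 2 lower, including *KIT* (log2 fold change -2.14 ± 0.25 SE, adjusted p = 0.00113). *EDNRB*, also a marker of aerocytes, had a difference of -0.83 ± 0.28 SE (adjusted p = 0.0556). Arterial markers split 1 higher and 1 lower of 9, venous 0 and 1 of 4, lymphatic 2 and 1 of 5, and platelet 0 and 0 of 2.

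The next question was how CF lung differed from WT lung at each age. Each region was tested in 1 fit of 20 libraries. Of 50 tests in distal lung 8 were called, where 7.21% of all gene tests were called, and of 50 in proximal lung 1 was called, against 1.62%. The distal calls were *ANGPT1* and *EDNRB* at day 80, *ANGPT1* at day 100, and *FLT1*, *ANGPT1*, *ANGPT2*, *TEK* and *TIE1* at term.

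**Figure D3:**
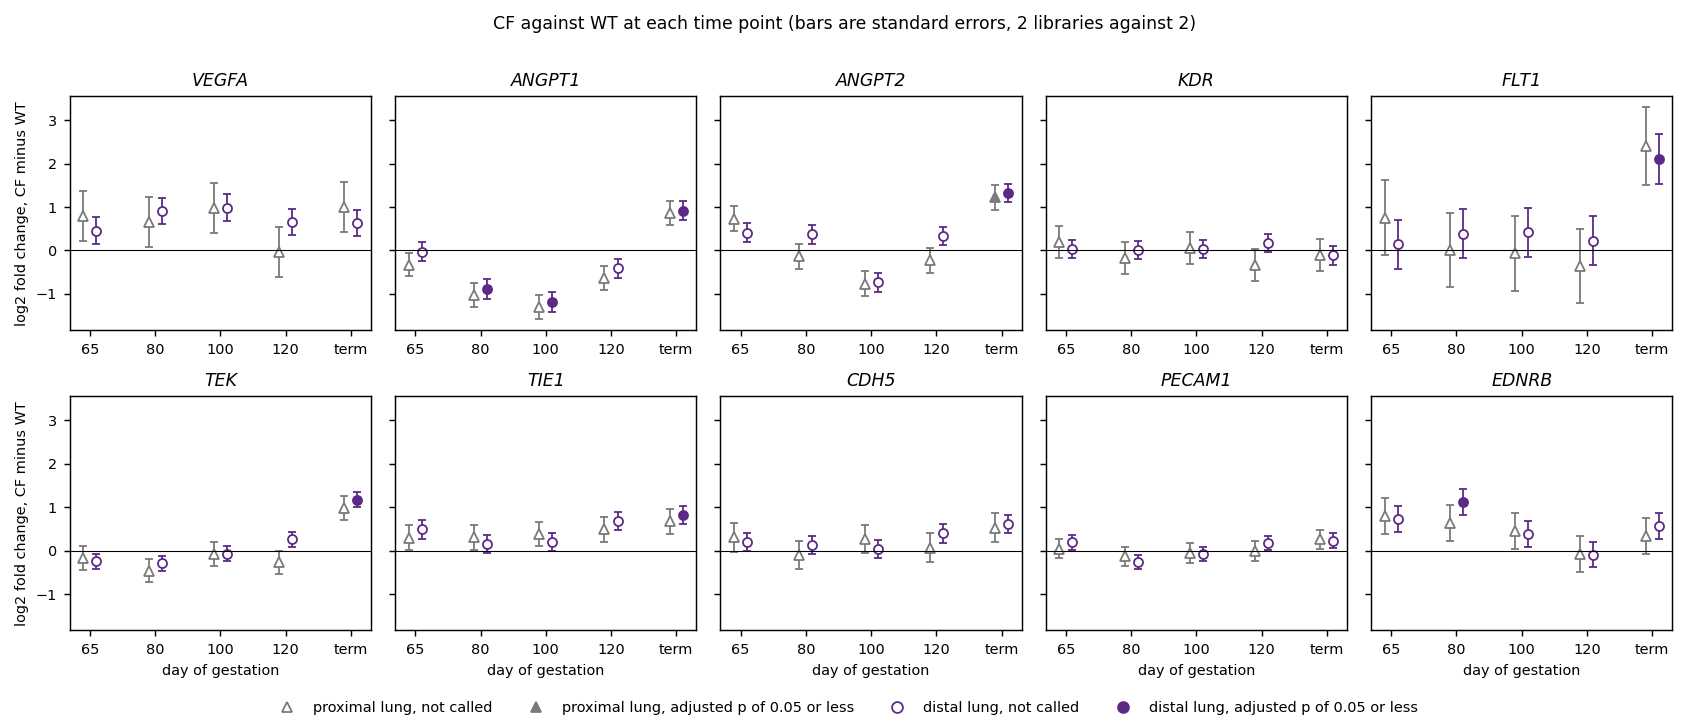
Log2 fold change of CF against WT for each gene at each time point, triangles for proximal and circles for distal lung, bars for the standard error, filled where the adjusted p was 0.05 or less. *ANGPT1* lay below 0 before term and above 0 at term, with calls of -1.19 at day 100 and 0.92 at term in distal lung, while *KDR* stayed between -0.33 and 0.20.

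*ANGPT1* was lower in CF lung in mid gestation. At day 80 in distal lung the WT libraries read 87.6 and 102 CPM and the CF libraries 47.4 and 55.5 CPM, and at day 100 they read 113 and 106 in WT and 51.1 and 45.9 in CF. No CF library reached the lowest WT library at either age. The log2 differences were -0.88 ± 0.23 SE (adjusted p = 0.0348) at day 80 and -1.19 ± 0.23 SE (adjusted p = 0.00963) at day 100. The first was 1 of 2 calls among the 10 genes, against 5.92% of all genes, and the second 1 of 1, against 5.3%. At day 100 the call was lost when any 1 of the 4 libraries compared was left out (adjusted p 0.0683 to 0.122). At day 80 it was lost when any 1 of its 4 was left out (0.114 to 0.263) and without any day 100 library (0.0523 to 0.0539). With the WT day 100 pair, which is 1 animal, summed to 1 library the adjusted p was 0.0941 at day 100 and 0.0539 at day 80, and *EDNRB* at day 80 was lost as well (0.0643).

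In proximal lung at day 100 *ANGPT1* stood at 126 and 115 CPM in WT and 48.6 and 48.8 CPM in CF, a difference that did not pass (-1.31 ± 0.28 SE, adjusted p = 0.0617). It passed without CF day 120 replicate 1 (0.0185) or 2 (0.0181) and without CF term replicate 1 (0.0341) or 2 (0.0342). Averaged over the 4 time points before term, 8 libraries against 8, *ANGPT1* was lower in CF in both regions, with a log2 difference of -0.82 ± 0.14 SE (adjusted p = 0.00125) in proximal and -0.63 ± 0.11 SE (adjusted p = 7.79e-04) in distal lung, and both calls held whichever library was left out.

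*VEGFA* was higher in CF distal lung before term. CF libraries read 72.4 and 57.8 CPM at day 65, 95.5 and 90.2 at day 80, 159 and 138 at day 100, 266 and 198 at day 120 and 149 and 357 at term. At each of the 4 time points before term both CF libraries lay above both WT libraries of that age. Averaged before term the difference was 0.75 ± 0.15 SE (adjusted p = 0.00187), while no single time point passed with all libraries. Without CF term replicate 2 the difference passed at day 80 (0.91, adjusted p = 0.0179) and day 100 (0.97, adjusted p = 0.0137), where *ANGPT2* passed as lower in CF (-0.74, adjusted p = 0.0181), and *TIE1* passed as higher at day 120 (0.68, adjusted p = 0.0424). Without CF term replicate 1 these 4 differences also passed (0.0182, 0.0140, 0.0172 and 0.0423). With replicate 2 left out, 8.35% of all genes were called at day 80 and 7.66% at day 100. In CF proximal lung *VEGFA* stood at 79.9 and 89.3 CPM at day 65, 74.1 and 77.4 at day 80, 152 and 133 at day 100, 221 and 45.02 at day 120 and 128 and 453 at term, and the day 120 replicates differed 4.92-fold. The proximal average before term did not pass with both (0.60 ± 0.29 SE, adjusted p = 0.160), and was 0.77 without day 120 replicate 2.

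*TIE1* and *EDNRB* were also higher in CF distal lung on the average before term, by 0.38 ± 0.10 SE (adjusted p = 0.0129) and 0.53 ± 0.15 SE (adjusted p = 0.0131). Of the 10 genes, 3 were thus higher and 1 lower on this average, where 18.6% of all genes were called higher and 13.6% lower, and these calls held whichever library was left out. *EDNRB* stood at 125 and 123 CPM at day 65, 147 and 92.5 at day 80, 134 and 121 at day 100, 235 and 189 at day 120 and 225 and 149.7 at term in CF distal lung, above both WT libraries at days 65, 80 and 100 and overlapping them at day 120. At day 80 it was higher by 1.11 ± 0.30 SE (adjusted p = 0.0421), a call lost when any 1 of the 4 libraries compared was left out (0.0627 to 0.380) and without any library of day 100 or of WT at day 65 (0.0532 to 0.0644). In proximal lung 1 of 10 genes, *ANGPT1*, was called on this average, against 20.6% of all genes. Without CF day 120 replicate 2 the proximal difference of *TIE1* was 0.43, and without replicate 1 that of *TEK* was -0.40.

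Other endothelial genes were counted on the same average. In distal lung 12 of 27 pan-endothelial markers were called higher, 1 was called lower and the rest did not pass (median log2 difference 0.32, against 0.03 over all genes). In proximal lung 10 were called higher and 1 lower (0.28, against 0.07), where 13.8% of all genes were called higher. The largest in distal lung were *EGFL7*, a secreted endothelial factor (log2 fold change 1.32 ± 0.12 SE, adjusted p = 3.41e-06), *VWF*, the clotting factor stored by endothelial cells (log2 fold change 1.21 ± 0.16 SE, adjusted p = 6.71e-05), and *SOX18*, a transcription factor of vessels (log2 fold change 1.16 ± 0.25 SE, adjusted p = 0.00317). Among 7 other VEGF family genes 3 were called higher and 2 lower in distal lung. *VEGFB* was higher (log2 fold change 0.73 ± 0.16 SE, adjusted p = 0.00311), as was *VEGFC*, a lymphatic growth factor (log2 fold change 0.46 ± 0.10 SE, adjusted p = 0.00385), while *FIGF* was lower (log2 fold change -0.79 ± 0.21 SE, adjusted p = 0.00911). *CDH5* and *PECAM1* did not pass on this average, at 0.19 ± 0.11 SE (adjusted p = 0.184) and 0.01 ± 0.08 SE (adjusted p = 0.990), and neither did *KDR*, at 0.07 ± 0.11 SE (adjusted p = 0.681). The other 3 were *FLT1*, at 0.29 ± 0.28 SE (adjusted p = 0.466), *ANGPT2*, at 0.10 ± 0.11 SE (adjusted p = 0.529), and *TEK*, at -0.09 ± 0.09 SE (adjusted p = 0.478). In proximal lung the 9 genes that did not pass lay between -0.25 and 0.60.

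At term *ANGPT2* was higher in CF lung in both regions. *ANGPT2* stood at 18.9 and 19.2 CPM in WT and 36.4 and 57.2 CPM in CF distal lung, and at 22.7 and 19.9 in WT and 39.98 and 59.5 in CF proximal lung. Every CF library lay above every WT library, and the replicate 2 libraries were the higher of each CF pair. *ANGPT2* was 2.50-fold higher in distal lung (log2 fold change 1.32 ± 0.21 SE, adjusted p = 0.00125) and 2.34-fold higher in proximal lung (log2 fold change 1.22 ± 0.29 SE, adjusted p = 0.0242). Without CF replicate 2 the distal difference was 0.93 (adjusted p = 0.0138), and the proximal difference was no longer called (0.89, adjusted p = 0.205). The proximal call was also lost without WT term replicate 1 (0.108) or 2 (0.201).

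*TEK*, the receptor of both angiopoietins, stood at 129 and 101 CPM in WT and 225 and 281 CPM in CF distal lung, with no overlap. It was 2.25-fold higher in CF (log2 fold change 1.17 ± 0.17 SE, adjusted p = 7.53e-04) and remained called without CF replicate 2 (0.97, adjusted p = 0.00947). *ANGPT2* and *TEK* in distal lung at term were the only calls of the 9 between genotypes at single ages that held whichever library was left out. In proximal lung *TEK* stood at 169 and 124 in WT and 259 and 315 in CF, again with no overlap, and did not pass (log2 fold change 0.97 ± 0.27 SE, adjusted p = 0.0522). It passed without CF day 120 replicate 1 (0.97, adjusted p = 0.00469) or replicate 2 (0.95, adjusted p = 0.00551), the pair that differed most.

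*ANGPT1*, lower in CF lung before term, was higher there at term. WT distal libraries read 34.1 and 22.02 CPM and CF libraries 62.5 and 41.3 CPM. The groups did not overlap, and the gap between them was smaller than that between the CF libraries. The difference was 0.92 ± 0.23 SE (adjusted p = 0.0150), and it was lost without WT replicate 2 (0.60, adjusted p = 0.132) or CF replicate 1 (0.54, adjusted p = 0.118) but not without CF replicate 2 (1.15, adjusted p = 0.00999). In proximal lung, with 45.6 and 33.5 in WT and 95.03 and 49.3 in CF, it did not pass (log2 fold change 0.87 ± 0.28 SE, adjusted p = 0.0833), and it passed without CF replicate 2 (1.24, adjusted p = 0.0256). It also passed without CF day 120 replicate 1 (0.87, adjusted p = 0.0300) or 2 (0.85, adjusted p = 0.0323).

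*TIE1* at term stood at 92.8 and 67.6 CPM in WT and 161 and 115 CPM in CF distal lung, without overlap. It was 1.76-fold higher in CF (log2 fold change 0.81 ± 0.21 SE, adjusted p = 0.0191), a call lost without WT replicate 2 (0.57, adjusted p = 0.142) or CF replicate 1 (0.50, adjusted p = 0.129) and kept without CF replicate 2 (1.01, adjusted p = 0.0154).

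The difference of *FLT1* at term rested on 1 CF animal. WT distal libraries read 24.2 and 11.3 CPM and CF libraries 20.03 and 129 CPM, and in proximal lung they read 27.4 and 13.7 in WT and 27.5 and 189 in CF. CF replicate 2 was far above the rest in both regions, and CF replicate 1 lay inside the WT range in distal lung and just above it in proximal lung. The distal difference was 4.29-fold (log2 fold change 2.10 ± 0.58 SE, adjusted p = 0.0259) and became 0.18 (adjusted p = 0.834) without CF replicate 2. It was also lost without WT replicate 2 (1.62, adjusted p = 0.164). The proximal difference did not pass (log2 fold change 2.40 ± 0.90 SE, adjusted p = 0.140) and was 0.40 (adjusted p = 0.892) without CF replicate 2. It passed without CF day 120 replicate 1 (2.40, adjusted p = 0.0306) or 2 (2.39, adjusted p = 0.0315). Without CF term replicate 1 it was 3.19 (adjusted p = 0.0423). Without either of these libraries 4 of 10 genes were called in proximal lung at term, where 12% of all genes were called without the first and 12.2% without the second.

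*VEGFA* had the same CF library at its top. CF term replicate 2 read 453 CPM in proximal and 357 CPM in distal lung, against 128 and 149 in CF replicate 1 and 123 to 204 in the WT libraries. The distal difference of 0.63 ± 0.30 SE (adjusted p = 0.178) did not pass and was -0.16 (adjusted p = 0.745) without CF replicate 2. Without CF replicate 1 it passed (1.08, adjusted p = 0.00644). The hypoxia-responsive gene *EGLN3* stood at 635 and 695 CPM in the replicate 2 libraries, 63.5 and 68.1 in replicate 1, and 8.82 to 11.8 in WT. *ADM* stood at 655 and 743 CPM in replicate 2, but at 89.9 and 115 in replicate 1, below the 178 to 253 of WT. *CA9* stood at 3.06 and 1.78 CPM in replicate 2, 0.864 and 1.41 in replicate 1, and 2.11 to 5.57 in WT. Between genotypes at term in distal lung 7.65% of all genes were called higher in CF and 7.57% lower. In distal lung at term 14 of the 19 hypoxia-responsive genes were called higher and 1 lower, against 6 higher and 1 lower without CF replicate 2.

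The remaining genes did not pass between genotypes at term. *KDR* stood at 314 and 219.9 CPM in WT and 223 and 259.9 CPM in CF distal lung, inside the same range (log2 fold change -0.11 ± 0.21 SE, adjusted p = 0.763), and the groups overlapped at all 5 ages in both regions. The log2 differences were 0.61 ± 0.21 SE (adjusted p = 0.0622) for *CDH5*, 0.23 ± 0.17 SE (adjusted p = 0.398) for *PECAM1* and 0.56 ± 0.29 SE (adjusted p = 0.217) for *EDNRB*. *CDH5* passed without WT replicate 1 (0.99, adjusted p = 0.0121). In all, 5 of 10 genes were called higher in CF distal lung at term, against 7.65% of all genes, and 1 of 10 in proximal lung, against 2.6%. Without CF replicate 2 the counts were 4 in distal lung, against 6.49% of all genes called in either direction, and 1 in proximal lung, against 1.86%, where the gene called was *ANGPT1* instead of *ANGPT2*. The median log2 difference of the 10 was 0.72 in distal and 0.77 in proximal lung, against 0.00 and -0.03 over all genes, and the medians without CF replicate 2 were 0.62 and 0.73.

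Markers of vessels and of cells beside them were counted at term too. In distal lung 9 of 27 pan-endothelial markers were called higher and none lower (median 0.46), and 5 without CF replicate 2. The largest were *EGFL7* (log2 fold change 1.84 ± 0.25 SE, adjusted p = 3.89e-04), *PLVAP* (log2 fold change 1.64 ± 0.42 SE, adjusted p = 0.0186) and *S1PR1*, a receptor of vascular stability (log2 fold change 1.35 ± 0.25 SE, adjusted p = 0.00341). Of 9 arterial markers 4 were called higher, led by *DLL4*, a Notch ligand of arterial and tip cells (log2 fold change 2.44 ± 0.42 SE, adjusted p = 0.00180), and 3 without CF replicate 2. In proximal lung 3 pan-endothelial markers were called higher at term, and 1 without CF replicate 2. Summed pan-endothelial markers ranged from 2367 to 2932 CPM in WT and 3980 to 4164 CPM in CF distal lung at term, and their part in the differences of *ANGPT2*, *TEK* and *TIE1* was not tested.

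Of 11 pericyte markers 6 were called higher in CF distal lung at term (4 without CF replicate 2), where 7.65% of all genes were called higher and 7.57% lower, or 6.49% in either direction without CF replicate 2. The markers called higher were led by *NDUFA4L2*, which also responds to hypoxia (log2 fold change 3.24 ± 0.31 SE, adjusted p = 4.69e-05). The sum of all 11 was 455 to 614 CPM in WT and 1195 to 1272 CPM in CF. Among 7 other VEGF family genes *VEGFC* (log2 fold change 0.95 ± 0.21 SE, adjusted p = 0.00824) and *NRP2* were called higher, and of the 7 other angiopoietin genes only *SVEP1*, a ligand of TIE1 (log2 fold change 1.08 ± 0.21 SE, adjusted p = 0.00385), was. Of 6 endothelin genes 2 were called higher, the ligand *EDN1* (log2 fold change 2.46 ± 0.49 SE, adjusted p = 0.00489) and the receptor *EDNRA* (log2 fold change 1.08 ± 0.16 SE, adjusted p = 8.94e-04), and *ECE2* was lower. Without CF replicate 2 the numbers called higher were 1 VEGF family, 1 angiopoietin and 2 endothelin genes. General capillary markers gave 2 higher of 7, aerocyte markers 2 higher and 2 lower of 7, venous 1 higher of 4, lymphatic 1 higher and 1 lower of 5, platelet 0 and 0 of 2 and erythroid 2 higher of 7.

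In the same comparison 4 of 9 alveolar type 1 markers, 3 of 11 epithelial markers and 2 of 10 leukocyte markers were called lower in CF, against 7.57% of all genes. Summed alveolar type 1 markers stood at 7653 to 7909 CPM in WT and 2583 to 4897 CPM in CF distal lung, and summed leukocyte markers at 837 to 1486 and 573 to 958 CPM. The part of these cells in the results for the 10 genes was not tested.

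Whether the change from day 120 to term itself differed between genotypes was tested as an interaction. In distal lung 3 of 10 genes passed, against 9.31% of all genes. *ANGPT1* fell in WT distal lung and went from 48.6 and 61.05 to 62.5 and 41.3 CPM in CF, a difference between the changes of 1.33 ± 0.32 SE (adjusted p = 0.0205). *ANGPT2* went from 24.5 and 20.7 to 18.9 and 19.2 CPM in WT and from 28.02 and 28.5 to 36.4 and 57.2 CPM in CF (0.99 ± 0.30 SE, adjusted p = 0.0497). *TEK* went from 154 and 134 to 129 and 101 CPM in WT and from 182 and 159.7 to 225 and 281 CPM in CF (0.91 ± 0.24 SE, adjusted p = 0.0329). For *ANGPT2* and *TEK* both CF term libraries lay above both CF day 120 libraries, and both WT term libraries lay below both WT day 120 libraries. *FLT1* had the widest difference between changes, 1.87 ± 0.80 SE (adjusted p = 0.152), and passed without CF term replicate 1 (2.63, adjusted p = 0.00299), which leaves the replicate with raised hypoxia-responsive genes as the only CF term library. *EDNRB* stood at 0.65 ± 0.42 SE (adjusted p = 0.355), and *VEGFA*, *KDR*, *TIE1*, *CDH5* and *PECAM1* lay between -0.29 and 0.22 (adjusted p 0.591 to 0.995). With the WT day 100 pair summed to 1 library *ANGPT2* (0.0823) and *TEK* (0.0536) were no longer called.

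Without CF distal term replicate 2 the difference was 1.57 (adjusted p = 0.0119) for *ANGPT1*, 0.60 (adjusted p = 0.202) for *ANGPT2* and 0.71 (adjusted p = 0.121) for *TEK*. *ANGPT1* was lost without WT day 120 replicate 1 (0.0723) or 2 (0.0561), WT term replicate 2 (0.0617) or CF day 120 replicate 1 (0.0693). *TEK* was lost without 11 of the 20 libraries (0.0503 to 0.121) and *ANGPT2* without 19 of 20 (0.0559 to 0.202). In proximal lung edgeR called none of the 10 in this interval, against 1.78% of all genes, with an unadjusted p under 0.05 for 4 and a lowest adjusted p of 0.0734, while DESeq2 called 3 over the 4 proximal intervals. Over all genes DESeq2 called 1380 of 81376 such proximal tests, against 362 with edgeR. Without CF proximal day 120 replicate 1, the difference between the changes was 5.19 for *FLT1*, 2.59 for *VEGFA*, 1.93 for *ANGPT2*, 1.87 for *ANGPT1*, 1.84 for *TEK*, 1.17 for *KDR* and 1.17 for *CDH5*. These values rest on replicate 2 as the only CF proximal day 120 library. They are differences in change, not in level at term, where *KDR* stood at 271 and 278 CPM in CF and 354 and 235 in WT proximal lung. The difference was 1.88 for *ANGPT1* without CF proximal term replicate 2 and 1.70 for *ANGPT2* without CF proximal term replicate 1. From day 100 to 120 *VEGFA* (-2.58, adjusted p = 0.0223) and *KDR* (-1.34, adjusted p = 0.0397) passed without day 120 replicate 1, where 10.5% of all genes were called.

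Averaged over all 5 ages, 6 of 10 genes were called between genotypes in distal lung, against 31.2% of all genes, and 2 of 10 in proximal lung, against 21.8%. In distal lung *VEGFA* (0.73 ± 0.14 SE, adjusted p = 0.00109), *TIE1* (0.46 ± 0.09 SE, adjusted p = 0.00184), *EDNRB* (0.54 ± 0.13 SE, adjusted p = 0.00678), *ANGPT2* (0.34 ± 0.09 SE, adjusted p = 0.0129) and *CDH5* (0.28 ± 0.09 SE, adjusted p = 0.0370) were higher in CF and *ANGPT1* lower (-0.32 ± 0.10 SE, adjusted p = 0.0264). The *CDH5* call was lost without 16 of 20 libraries (0.0561 to 0.101) and the *ANGPT1* call without 4 (0.0508 to 0.0612). In proximal lung *TIE1* was higher (0.43 ± 0.13 SE, adjusted p = 0.0258) and *ANGPT1* lower (-0.48 ± 0.12 SE, adjusted p = 0.0132), and the *TIE1* call was lost without 10 of 20 libraries (0.0507 to 0.0637). *VEGFA* and *EDNRB* were not called in proximal lung with all libraries. The proximal difference of *VEGFA* was 0.81 without CF day 120 replicate 2 and 0.79 without CF term replicate 1. That of *EDNRB* was 0.49 without CF day 120 replicate 2 and 0.52 without CF term replicate 2. The distal *CDH5* call was among those lost without CF term replicate 2 (0.0786), and it was lost with the WT day 100 pair summed (0.0799). *FLT1* passed in distal lung without CF term replicate 1 (0.79, adjusted p = 0.00145) or WT term replicate 1 (0.77, adjusted p = 0.0382). Since *ANGPT1* lay below WT before term and above it at term, its average mixes differences of opposite sign.

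Ratios within a library do not depend on how libraries are scaled. The ratio of *ANGPT2* to *ANGPT1*, in CPM per kb, in WT distal lung was 0.161 and 0.236 in the 2 libraries of day 65, 0.122 and 0.134 at day 80, 0.251 and 0.256 at day 100, 0.460 and 0.505 at day 120 and 0.870 and 1.37 at term. In CF distal lung it was 0.229 and 0.296 at day 65, 0.304 and 0.304 at day 80, 0.322 and 0.375 at day 100, 0.733 and 0.905 at day 120 and 0.914 and 2.17 at term. The ratio was below 1 in every library before term and highest at term in both genotypes, and the CF libraries lay above the WT libraries of their age at days 80, 100 and 120. In WT proximal lung it was 0.148 and 0.198 at day 65, 0.162 and 0.186 at day 80, 0.280 and 0.272 at day 100, 0.492 and 0.418 at day 120 and 0.782 and 0.930 at term. The CF proximal libraries read 0.387 and 0.328 at day 65, 0.294 and 0.351 at day 80, 0.371 and 0.433 at day 100, 0.627 and 0.555 at day 120 and 0.660 and 1.89 at term. They lay above the WT libraries at every age before term, and at term CF replicate 1 lay below both WT libraries and replicate 2 above them.

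The log2 ratio was 0.65 higher in CF than in WT, as a mean over the 5 ages, in each region. An exact two-sided permutation test that exchanged genotype within ages, over 7776 arrangements and 10 libraries against 10, gave p = 0.00231 in proximal and p = 0.00386 in distal lung, both 0.00772 after adjustment over the 4 ratio tests, where the smallest possible p was 2.57e-04. Both WT day 100 libraries of a region carry 1 animal label, and with them averaged to 1 sample, 9 against 10, the difference was 0.65 in both regions, with exact permutation p-values of 0.00309 in proximal and 0.00437 in distal lung before adjustment. Leaving out any library kept the difference between 0.50 and 0.80 in proximal and between 0.52 and 0.77 in distal lung.

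The ratio of *FLT1* to *KDR*, the VEGFA receptors, was 0.725 in proximal and 0.527 in distal lung in CF term replicate 2, against 0.0474 to 0.163 in the other 38 libraries. Its mean log2 difference between genotypes was 0.38 in proximal lung (exact permutation p = 0.400) and 0.52 in distal lung (exact permutation p = 0.0131, 0.0175 after adjustment). The distal difference was 0.27 without CF term replicate 2, and its p was 0.173 without WT term replicate 1 and 0.254 without WT term replicate 2. With the WT day 100 pair as 1 sample the exact permutation p was 0.0162 in distal and 0.399 in proximal lung.

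**Figure D4:**
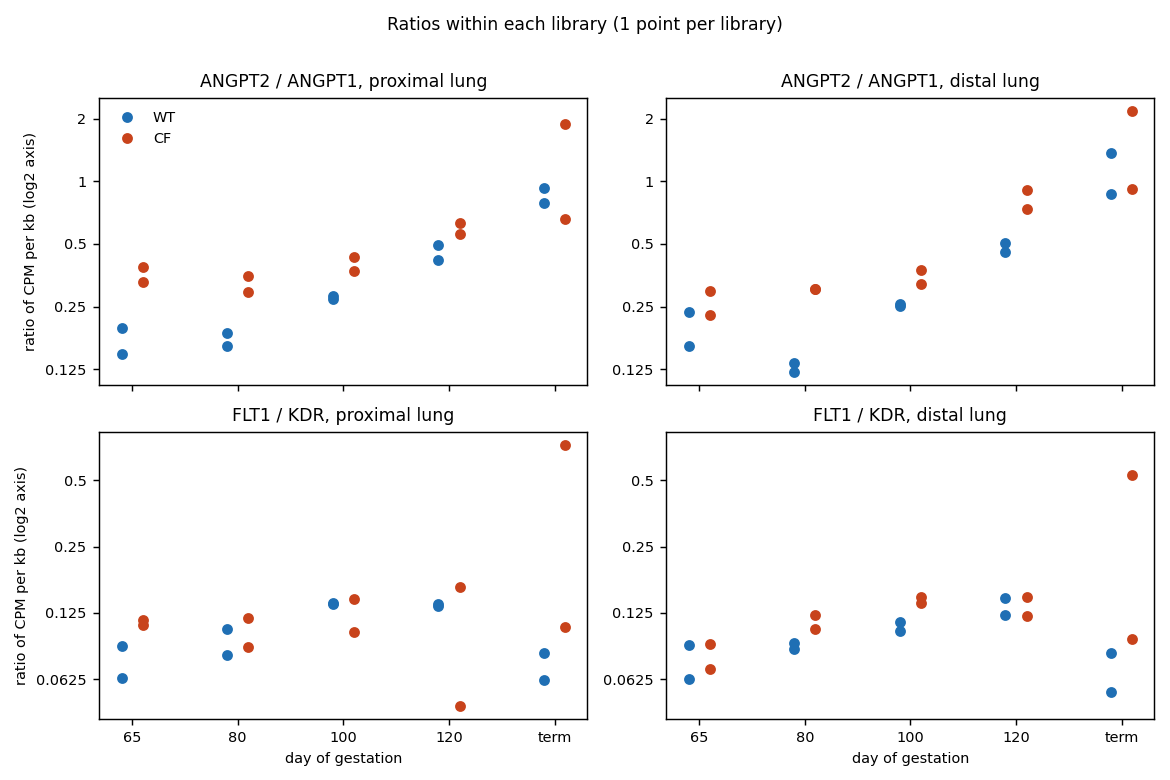
Ratios of *ANGPT2* to *ANGPT1* and of *FLT1* to *KDR* in CPM per kb (log2 axis) against day of gestation, with 1 point per library, WT in blue and CF in red. The *ANGPT2* to *ANGPT1* ratio was highest at term in both genotypes, and the CF term replicate 2 libraries, at 0.725 and 0.527, stood above all others in the *FLT1* to *KDR* ratio.

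No gene was called between proximal and distal lung at any age in either genotype, where 0.0107% of all genes were called at day 120 and 0.00534% at term in WT and 0% at every other age and in CF. An unadjusted p under 0.05 was reached in 3 of 50 tests in WT and 0 of 50 in CF, and DESeq2 also made no call. Log2 differences, distal minus proximal, ran from -0.50 to 0.32 in WT and from -0.74 to 0.79 in CF. Averaged over the 5 ages the differences ran from -0.21 to 0.07 in WT and from -0.07 to 0.16 in CF, again with no call, against 0.016% and 0.00497% of all genes. DESeq2 made none there, and an unadjusted p under 0.05 was reached by 2 of 10 genes in WT and 0 of 10 in CF. With the replicate number within each age as a block, in place of the animal, none of the 10 genes was called at a single age or on the average either. Over all genes 33 of 93575 tests at single ages and 14 of 18715 on the average were called in WT and 0 in CF. The lowest adjusted p among the 10 genes with this block was 0.189 at term in WT. Without WT distal term replicate 1, *ANGPT1* passed at term in WT (-0.82, adjusted p = 0.0266). Without CF proximal day 120 replicate 1, 4 genes passed at day 120 in CF: *VEGFA* (2.33), *KDR* (1.36), *CDH5* (0.98) and *TEK* (0.85), where 18.2% of all genes were called.

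Calls between genotypes in proximal lung also depended on that CF day 120 pair. The replicates read 221 and 45.0 CPM for *VEGFA*, 408 and 143 for *KDR*, 62.8 and 6.38 for *FLT1* and 745 and 329 for *CDH5*, with replicate 2 the lower in each, but 592 and 557 for *PECAM1*. Replicate 2 lay below both WT libraries for *VEGFA*, *KDR*, *FLT1* and *CDH5*. With both libraries no gene was called at day 120 in proximal lung, where 1.35% of all genes were called, 1 of the 10 had an unadjusted p under 0.05 and DESeq2 made no call either. Without replicate 1, *KDR* (-1.28, adjusted p = 0.00781), *FLT1* (-2.79, adjusted p = 0.0310), *VEGFA* (-1.60, adjusted p = 0.0296), *TEK* (-0.87, adjusted p = 0.0133) and *ANGPT1* (-0.998, adjusted p = 0.0242) passed as lower in CF, where 30.2% of all genes were called, with 1 CF library assumed to vary like the other groups.

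Among the 10 genes *TIE1* and *CDH5* had the most similar profiles. Likeness was the root mean square difference of gene-centred log2 CPM over the 20 conditions, among 13710 genes, and is a description with no test. For *TIE1* the 3 nearest genes were *CDH5* (0.159), *PEAR1* (0.161) and *CD34* (0.164), and for *CDH5* they were *RUSC2* (0.158), *TIE1* (0.159) and *GUCY1B3* (0.170). The nearest to *TEK* were *CALCRL* (0.191), *MMRN2* (0.193) and *PRKCH*, to *PECAM1* *DDX47* (0.150), *ZNF366* and *ARNTL*, and to *KDR* *ANTXR2* (0.133), *MFSD14B* and *WWC3*. For *VEGFA* and *EDNRB* the nearest gene was the same, *ADRA2B*, at 0.300 and 0.253, followed by *TRAK1* and *IGIP* for *VEGFA* and *FAS* and *SEMA6A* for *EDNRB*.

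The nearest genes of the others were, for *FLT1*, *PLCB1* (0.310), *LDB2* and *WASF3*, for *ANGPT2*, *BMX* (0.283), *FAM212B* and *ARSK*, and for *ANGPT1*, *UBTD2* (0.253), *NEXN* and *TMTC2*. *ANGPT1* was the member least like the others, and its difference from *VEGFA* was 1.10.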

How the data were processed

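RNA was extracted from frozen proximal and distal lung, libraries were primed with oligo-dT, and paired reads were sequenced. The authors aligned reads to the Oar_v4.0 assembly with STAR (release 2.6 in the submitters' processing notes, a later one in the study's methods) and summed them per gene over exons with featureCounts 1.6.3. The deposited values are raw counts per gene, in 4 tables of 1 genotype and region each. The annotation release, strand setting and counting of mates are not given in the sources used here. Among counts of 1 to 20, 69.2% to 85.8% per library were even, so counts overstate the number of fragments.

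Samples were grouped by genotype, region and age from their labels. Tests ran under R 4.3.3, using edgeR 4.0.16 (glmQLFit with legacy = TRUE) and limma 3.58.1. Genes were filtered by filterByExpr (minimum count 10, minimum total 15), scaled by TMM and tested with glmQLFTest. Fits held the 10 libraries of a course, the 20 libraries of a region for genotype, or the 20 libraries of a genotype for region. P-values were adjusted over all genes tested, and a call needed an adjusted p of 0.05 or less. Levels used TMM over all 40 libraries. Ratios used a prior count of 0.5 and an exact permutation test.

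All 10 genes were tested in every comparison. Differences that edgeR called with all libraries are given by value. Others are given by value, range or count, and some that were not called are not given. Up to 3 called genes of largest change from each list and the 3 genes of nearest profile (prior count 2, mean log2 CPM of 1 or more) are named. The 10 genes and the lists were chosen with earlier results of these data known. The edgeR p-values rest on the spread between the 2 samples of a condition, pooled over all conditions of a fit and moderated across genes. By their labels both WT day 100 replicates share an animal, kept as 2 samples and also tried as 1, and WT day 65 replicate 2 and CF day 100 replicate 2 share an animal label although their genotypes differ.

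Proximal and distal samples were paired by replicate number within an age, also at WT day 100, where both replicates carry 1 animal label. Their deviations from group means correlated at -0.474 to 0.853, over 0.1 in 7 of 10 pairs. On simulated counts the day 120 to term test of WT distal lung recovered 20.4% of 2-fold and 59% of 4-fold changes over 17930 genes. The distal genotype test at day 120 recovered 21% and 62.5% over 19756 genes. The region test of WT lung at day 120 recovered 44.9% and 73.5% over 18352 genes. Only 193 to 196 of the genes tested were changed in each simulation. From day 120 to term in WT distal lung, 13.5% of all genes were called higher and 12.3% lower. The shares recovered therefore do not measure the power of that test in these data. Alternatives were relative log expression (RLE) scaling, no filter, DESeq2 1.42.0, other edgeR tests, replicate blocks, a fit of all 40 libraries, thinning to equal depth, stricter limits, and leaving out each library. Counts of list genes without the libraries that stood apart and ratios with the WT day 100 pair as 1 sample were added after seeing the data. No sequences are shown.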

Additional observations from a re-analysis of the deposited data

Results flagged for a closer look

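The change from day 120 to term differed between CF and WT distal lung for 3 of the 10 genes, by the interaction test of edgeR (adjusted over all genes), against 9.31% of all genes. The difference between the changes, CF minus WT on the log2 scale, was 1.33 for *ANGPT1* (adjusted p = 0.0205), 0.99 for *ANGPT2* (adjusted p = 0.0497) and 0.91 for *TEK* (adjusted p = 0.0329). Without CF distal term replicate 2, whose hypoxia-responsive genes stood apart, the differences were 1.57 (adjusted p = 0.0119), 0.60 (adjusted p = 0.202) and 0.71 (adjusted p = 0.121). Leaving out 1 library ended the call of *ANGPT2* in 19 of 20 cases, of *TEK* in 11 and of *ANGPT1* in 4. The kind of birth of the CF term animals is not given in the sources used here, so genotype and birth conditions cannot be told apart. Depth rose more in WT than in CF libraries over the same interval and cannot be told apart from genotype there either.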

How the results depend on the processing

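Across the alternatives no value of the 10 genes past the threshold reversed. Counts of calls for the 10 genes moved by more than 1.5 times as follows, and the cause was not tested. Distal calls between genotypes went from 8 of 50 to 13 with the likelihood ratio test, 5 with all 40 libraries in 1 fit, 5 with the WT day 100 replicates summed and 1 at the study's limits (adjusted p 0.001, log2 fold change 0.58). Proximal calls went from 1 of 50 to 2 with RLE scaling, bias-adjusted quasi-likelihood or the replicate block, 3 with the likelihood ratio test, 6 with DESeq2, 5 with 40 libraries and 0 at the study's limits. Averages over ages went from 3 of 20 in proximal lung to 5 with the replicate block, 5 with 40 libraries and 0 at the study's limits, and from 10 of 20 in distal lung to 1 at those limits. Differences between changes went from 3 of 40 in distal lung to 1 with 40 libraries, 1 with WT day 100 summed and 0 at the study's limits, and from 0 in proximal lung to 3 with DESeq2, 1 with the likelihood ratio test and 3 with 40 libraries.

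Interval calls went from 3 of 40 in CF distal lung to 11 with DESeq2, 8 with the likelihood ratio test and 0 at the study's limits, and from 0 in CF proximal lung to 1 with DESeq2 and 3 with 40 libraries. They went from 7 in WT distal lung to 4 with 40 libraries, 4 with WT day 100 summed and 0 at the study's limits, and from 6 in WT proximal lung to 10, 1, 2 and 1 with DESeq2, 40 libraries, WT day 100 summed and the study's limits. Calls over a whole course went from 3 to 6 with 40 libraries and 1 with the replicate block in CF proximal lung, and at the study's limits from 7 to 3 in CF distal, 3 to 0 in CF proximal, 9 to 4 in WT distal and 10 to 3 in WT proximal lung. Of these moves other than at the study's limits, 24 of 27 went the same way as the count over all genes, which for distal genotype calls went from 7238 to 11089 with the likelihood ratio test and 4870 with 40 libraries and for CF distal intervals from 4676 to 8128 with DESeq2. The other 3 were proximal genotype calls with RLE scaling (1644 to 1633 over all genes) and the replicate block (1351) and proximal averages with the block (8612 to 8181). Removing the filter or thinning to equal depth moved no count by over 1.5 times.

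Leaving out 1 library at a time gave 5 to 11 distal and 0 to 10 proximal calls between genotypes, 8 to 11 and 2 to 7 on averages, 0 to 4 and 0 to 9 for differences between changes, 0 to 6, 0 to 2, 2 to 17 and 1 to 9 interval calls in CF distal, CF proximal, WT distal and WT proximal lung, 6 to 8, 0 to 4, 5 to 10 and 6 to 10 course calls in the same order, and 0 to 4 in CF and 0 to 1 in WT between regions, with 0 on the average over ages. The ratio of *ANGPT2* to *ANGPT1* differed by 0.52 to 0.77 in distal and 0.50 to 0.80 in proximal lung, and that of *FLT1* to *KDR* by 0.27 to 0.77 and 0.11 to 0.66.

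Replicate numbers did not pair ages or genotypes: deviations of same-numbered samples correlated over 0.1 in 6 of 16 pairs of consecutive ages and 5 of 10 pairs of genotypes. With the replicate number as a block 3 calls of the 10 genes were lost and 9 gained. The lost ones were *ANGPT2* from day 80 to 100 in WT proximal lung (adjusted p = 0.0577) and the CF proximal courses of *ANGPT2* (0.0611) and *TEK* (0.0684). Those gained were *TEK* in proximal lung (adjusted p = 0.0453) and *CDH5* in distal lung (0.0358) at term and *ANGPT2* in distal lung at day 100 (0.0491) between genotypes, and for *EDNRB* both proximal averages (0.0435 before term, 0.0353 over 5 ages), the rise from day 100 to 120 in WT distal (0.0461) and proximal lung (0.0145), the fall to term in WT distal lung (0.0304) and the CF distal course (0.0332). Depth was lower in WT than in CF libraries before term. With 2 libraries per condition most 2-fold changes were not recovered in simulated data, in which few genes were changed.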
